A study of Homo sapiens with 8 samples.

Results

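Nuclear genes that encode respiratory chain and ATP synthase subunits were examined in cisplatin-resistant and parental head and neck squamous carcinoma cells. Members were chosen by symbol: the NDUF genes of complex I, SDHA to SDHD of complex II, the UQCR genes and CYC1 of complex III, the COX5 to COX8 genes of complex IV, the ATP5F, ATP5M and ATP5P genes of ATP synthase (complex V), and CYCS, the electron carrier cytochrome c. ATP5F1B and NDUFB1 were left out by the rule. It gave 86 protein-coding genes of 35113 matched genes, with 36 in complex I, 4 in complex II, 10 in complex III, 17 in complex IV, 18 in complex V and CYCS alone. NDUFA4 and NDUFA4L2 were counted to complex IV, where the NDUFA4 protein resides. Of the 86 members, 80 passed the expression filter, among 15221 genes tested. The other 6 were UQCRHL, COX6A2, COX7A1, COX7B2, COX8C and ATP5MGL, of which COX7B2 and COX8C had no counts in any library.

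Complexes I and II pass electrons from NADH and succinate to ubiquinone, complex III passes them on to cytochrome c, and complex IV hands them to oxygen. Complexes I, III and IV pump protons across the inner mitochondrial membrane, and ATP synthase lets the protons back to make ATP. Most subunits are encoded in the nucleus and imported, while a small core set is encoded by mitochondrial DNA. Squamous carcinoma cells combine respiration with high glycolysis, and cytochrome c released from mitochondria also activates caspases in apoptosis.

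RNA came from 4 groups: the HPV− resistant clone and HPV− parental cells of the line UPCISCC89, and the HPV+ resistant clone and HPV+ parental cells of the line UDSCC2. Resistant cells had been kept in rising cisplatin and then cloned from single cells, so each resistant group is 1 clone. The HPV+ line was selected at higher doses than the HPV− line. After cloning, the resistant cells were cultured without cisplatin. All cells were grown in low-glucose medium. Each group had 2 libraries, 8 in all, and the sources do not say whether both came from separate cultures. The p-values therefore reflect the spread of these libraries alone, and that spread may be technical.

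Libraries held 20250246 to 27341284 read pairs, and values are in CPM, which scales counts to library size, or in TPM, which also scales to transcript length, where genes are compared. All 10 squamous epithelial markers exceeded 1 CPM in every group, with summed levels of 4466 to 5590 CPM in HPV− resistant, 22214 to 23682 CPM in HPV− parental, 4898 to 5978 CPM in HPV+ resistant and 3909 to 4088 CPM in HPV+ parental libraries. Of 7 fibroblast markers, 4 exceeded 1 CPM in both HPV+ groups, with sums of 1452 to 3221 CPM in resistant and 3067 to 3390 CPM in parental libraries. In the HPV− groups these sums stayed at 12.6 to 13.1 CPM in resistant and 5.23 to 5.59 CPM in parental cells, with COL3A1 and DCN at 0 in both, while PDGFRB was at 0 in both HPV+ groups. Endothelial markers summed to 0.453 CPM at most. Of 5 leukocyte markers only CD68 exceeded 1 CPM, while TYROBP was at 0 in all libraries, and the sums over the 5 were 33.6 to 66.5 CPM in HPV− resistant, 151 to 155 CPM in HPV− parental, 9.28 to 11.4 CPM in HPV+ resistant and 14.8 to 16.9 CPM in HPV+ parental libraries. All groups are established cell lines, so these sums describe expression within a line. The part of these markers in the results was not tested, and in bulk RNA fewer expressing cells and less RNA per cell cannot be told apart.

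Subunit levels leaned to lower values in resistant cells, with a log2 fold change below 0 for 77 of the 80 tested members in HPV− and 75 in HPV+ cells. In HPV− cells 44 members were lower at an edgeR adjusted p below 0.05, against 14.1% of all genes tested. In HPV+ cells 37 were lower, against 10.5% of all genes. With the study's added threshold of a log2 fold change beyond 1, 16 members were differentially expressed in HPV− cells (background 5.22% lower) and 11 in HPV+ cells (background 4.6% lower). None passed the adjusted p in the higher direction in either line, where the background was 12.8% in HPV− and 7.65% in HPV+ cells. At an unadjusted p below 0.05 there was 1 member higher in each line, DESeq2 on all 8 libraries called 0 higher, and edgeR on the 4 libraries of a line called 1 higher in each. The 16 were NDUFB9, NDUFB6, NDUFB3, NDUFA12, NDUFB2 and NDUFC2-KCTD14 of complex I, CYC1 and UQCRB of complex III, COX6C, COX7B and COX7A2 of complex IV, ATP5MC1, ATP5MG, ATP5MK and ATP5MF of complex V, and CYCS. The 11 were NDUFA1, NDUFA2, NDUFA13, NDUFB2, NDUFB7 and NDUFS7 of complex I, CYC1, UQCR11 and UQCRQ of complex III, and COX8A and NDUFA4 of complex IV.

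The median log2 fold change over the members was −0.66 in HPV− and −0.65 in HPV+ cells, against 0.04 and 0.00 over all genes tested. With a trend over transcript length, GC content and level taken off, as described further on, these medians were −0.07 in HPV− and −0.38 in HPV+ cells. Both resistant libraries lay below both parental libraries for 62 members in HPV− cells, against 28.5% of all genes, and for 73 members in HPV+ cells, against 34.3%. Summed over all members, levels were 20502 and 21654 TPM in HPV− resistant libraries, against 36350 and 28664 TPM in HPV− parental libraries. In the HPV+ line they were 22751 and 21700 TPM in resistant libraries, against 35721 and 33862 TPM in parental libraries. The groups did not overlap in either line, and the 2 HPV− parental libraries lay farthest apart.

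The HPV− counts depended on which parental library was used. With parental replicate 1 left out there were 7 differentially expressed members, and with parental replicate 2 left out 34. Members past the adjusted p numbered 17 when HPV− resistant replicate 1 was left out and 29 when replicate 2 was. In HPV+ cells the 37 became 11 and 8 when resistant replicates 1 and 2 were left out in turn, 8 and 18 when parental replicates 1 and 2 were, and 56 without either HPV− parental library. The 11 became 4, 3, 2 and 11 when these HPV+ libraries were left out in the same order.

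**Figure D1:**
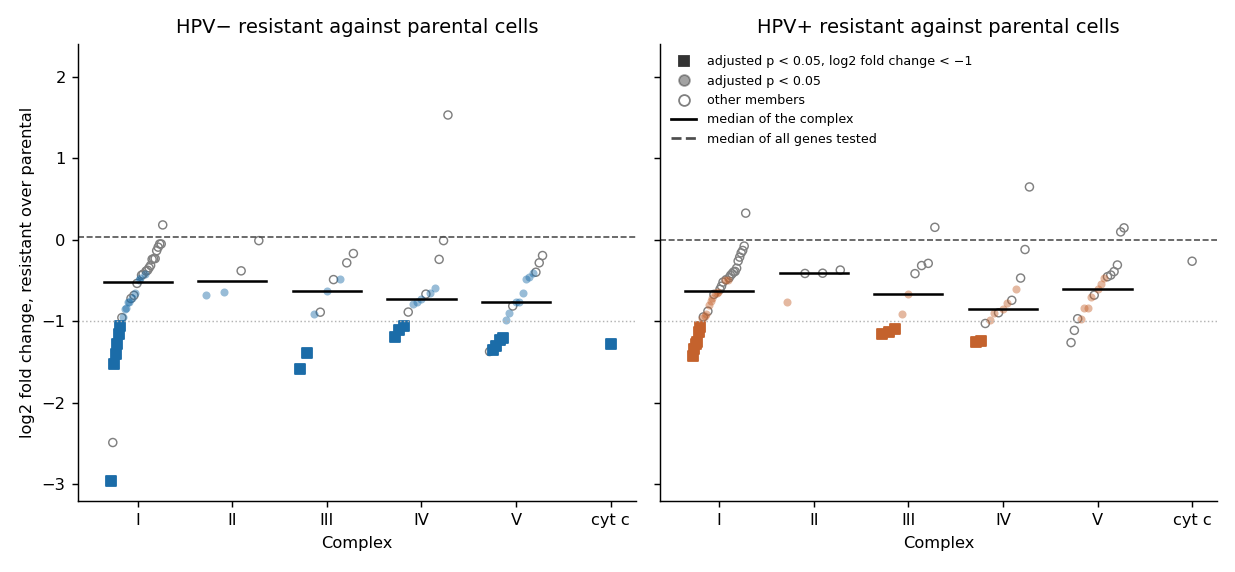
Log2 fold change (resistant over parental cells) of each tested member by complex, HPV− on the left and HPV+ on the right, with filled squares for adjusted p below 0.05 and log2 fold change below −1, filled circles for adjusted p below 0.05 alone, black bars for complex medians and a dashed line for the median of all genes. Medians of complexes I to V lie between −0.76 and −0.51 in HPV− cells and between −0.85 and −0.41 in HPV+ cells, and NDUFA6, with no counts in HPV− cells, is left out of the HPV− panel.

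**Figure D2:**
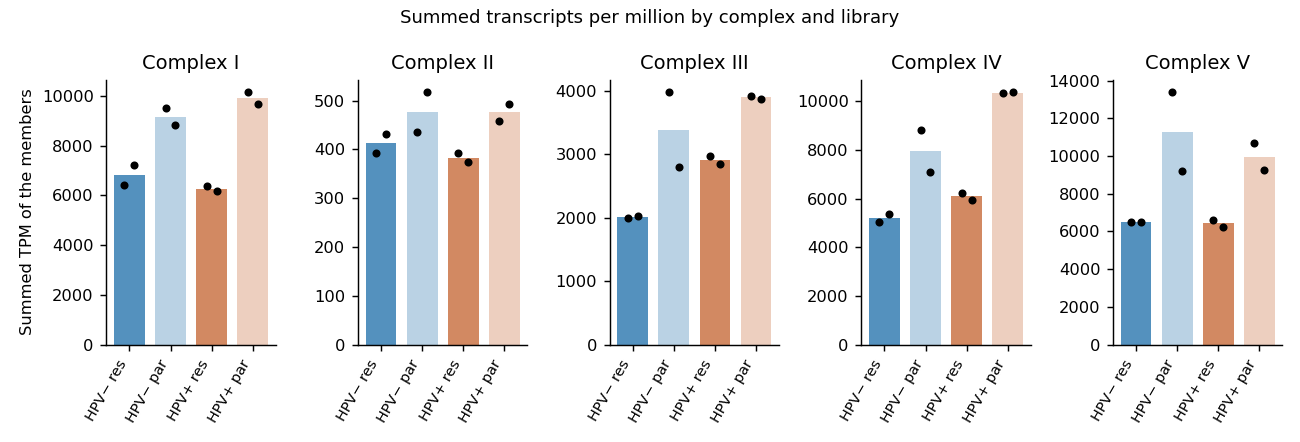
Summed TPM of the members of complexes I to V, with bars for the mean of 2 libraries and points for each library (res for resistant and par for parental cells). In every complex both resistant libraries lie below both parental libraries of their line, and in complex V the 2 HPV− parental libraries stand at 13387 and 9203 TPM.

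In complex I, 16 of 36 members were lower in HPV− resistant cells and 17 in HPV+ resistant cells, with 10 in common, and medians were −0.51 and −0.63 (−0.53 and −0.64 over the 35 with counts in both lines). Its members sit in the N module, which oxidises NADH, the Q module, which reduces ubiquinone, and the membrane arm, which pumps protons. In HPV− cells 3 of 7 tested N module genes and 12 of 20 membrane arm genes were lower at the adjusted p, while 0 of the 8 Q module genes were. Those 8 had a median of −0.28, with NDUFA6 entered at 0 for lack of counts. At an unadjusted edgeR p below 0.05, 2 of the 8 were lower, against 2964 of the 15221 genes tested. In HPV+ cells 3 N module, 3 Q module and 11 membrane arm genes were lower at the adjusted p. The difference between modules was not tested. NDUFS3, a core Q module gene, stayed at 1.5 and 2.6 CPM in HPV+ resistant libraries, against 3.8 and 2.2 CPM in HPV+ parental libraries, which overlapped.

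NDUFB9, an accessory subunit of the membrane arm, had 92.6 and 118.2 CPM in HPV− resistant libraries, against 319.9 and 287.9 CPM in HPV− parental libraries. It had 133.0 and 140.0 CPM in HPV+ resistant libraries, against 225.7 and 202.7 CPM in HPV+ parental libraries. All resistant values lay below all parental values of the same line, with log2 fold changes of −1.53 ± 0.16 (SE, edgeR adjusted p = 0.00022) in HPV− and −0.65 ± 0.15 (adjusted p = 0.0176) in HPV+ cells. NDUFB5, also of the membrane arm, had 56.8 and 53.3 CPM in HPV− resistant cells, against 101.1 and 97.3 CPM in HPV− parental cells. In the HPV+ line it had 100.2 and 87.6 CPM in resistant cells, against 189.4 and 177.0 CPM in parental cells. NDUFB5 separated cleanly in each line, with log2 fold changes of −0.85 ± 0.14 (adjusted p = 0.00187) and −0.97 ± 0.14 (adjusted p = 0.00151).

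NDUFB6, another membrane arm subunit, had 29.2 and 33.0 CPM in HPV− resistant libraries, against 96.5 and 68.1 CPM in HPV− parental libraries. The HPV− groups did not overlap, although the parental libraries differed (log2 fold change −1.40 ± 0.18, edgeR adjusted p = 0.000533). NDUFA12, an accessory subunit of the N module, had 27.0 and 29.6 CPM in HPV− resistant libraries, against 62.9 and 63.3 CPM in HPV− parental libraries. Both replicate pairs were tight there (−1.16 ± 0.15, adjusted p = 0.000549). In HPV+ cells neither gene passed, with log2 fold changes of −0.49 for NDUFB6 and −0.44 for NDUFA12.

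Among the core subunits, the iron-sulfur protein NDUFS7 had 58.6 and 65.7 CPM in HPV+ resistant libraries, against 165.3 and 135.4 CPM in HPV+ parental libraries. These groups lay far apart (−1.27 ± 0.25, edgeR adjusted p = 0.00927), whereas in HPV− cells parental replicate 2, at 68.1 CPM, fell between the resistant values of 60.3 and 81.9 CPM (−0.38, adjusted p = 0.29). NDUFS8, another iron-sulfur protein, fell by 0.64 on the log2 scale in HPV+ cells (adjusted p = 0.0301) and measured −0.13 in HPV− cells (adjusted p = 0.605). NDUFV2 fell in both lines, by 0.42 in HPV− (adjusted p = 0.0472) and 0.49 in HPV+ cells (adjusted p = 0.0353). NDUFV1, which binds FMN and receives the electrons of NADH, measured −0.37 (adjusted p = 0.136) and −0.52 (adjusted p = 0.0637) and passed in neither.

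The smallest changes in complex I were in NDUFA10 in HPV− cells (−0.05, adjusted p = 0.822) and NDUFS4 in HPV+ cells (−0.08, adjusted p = 0.801). Several members were only partly listed in the files and are uncertain: 2 of 8 annotated transcripts for NDUFB11, 2 of 3 for NDUFA6, 3 of 15 for NDUFS3, 6 of 14 for NDUFA3, 8 of 13 for ATP5MG and 1 of 2 for UQCRHL. Without them the median over 75 members was −0.66 in HPV− and −0.65 in HPV+ cells. NDUFA6 had no counts in any HPV− library, so it has no fold change there, while HPV+ resistant libraries had 34.2 and 33.0 CPM and HPV+ parental libraries 35.6 and 52.3 CPM. NDUFC2-KCTD14, a read-through gene that shares exons with NDUFC2, had 0.7 and 0.4 CPM in HPV− resistant libraries, against 4.2 and 4.8 CPM in HPV− parental libraries (−2.95 ± 0.49, edgeR adjusted p = 0.00224), and its reads cannot be fully told from those of NDUFC2.

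Complex II, or succinate dehydrogenase, had 2 of 4 members lower at the adjusted p in HPV− and 1 in HPV+ cells, none of them beyond a log2 fold change of −1. SDHA, the flavoprotein that oxidises succinate, had 206.4 and 244.2 CPM in HPV− resistant libraries, against 223.6 and 230.3 CPM in HPV− parental libraries. These values overlapped (log2 fold change −0.01, edgeR adjusted p = 0.979), and in HPV+ cells SDHA measured −0.41 (adjusted p = 0.0626). The iron-sulfur protein SDHB had 42.6 and 54.3 CPM in HPV− resistant, against 78.4 and 72.3 CPM in HPV− parental libraries, and fell by 0.64 ± 0.15 (SE, adjusted p = 0.0115). The membrane anchor SDHD had 85.0 and 85.3 CPM in HPV− resistant, against 127.2 and 144.6 CPM in HPV− parental libraries, and fell by 0.67 ± 0.14 (adjusted p = 0.00642). The other anchor, SDHC, had 68.4 and 57.5 CPM in HPV+ resistant, against 109.0 and 104.4 CPM in HPV+ parental libraries. Alone in complex II it passed in HPV+ cells, where it fell by 0.76 ± 0.14 (adjusted p = 0.00568).

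In complex III, 5 of 9 tested members were lower in the HPV− clone and 5 in the HPV+ clone, with CYC1 and UQCRQ in both. CYC1 encodes cytochrome c1, which hands electrons to cytochrome c. It had 173.8 and 225.3 CPM in HPV− resistant libraries, against 764.0 and 432.8 CPM in HPV− parental libraries. It had 220.2 and 219.5 CPM in HPV+ resistant libraries, against 529.7 and 410.8 CPM in HPV+ parental libraries. Resistant values lay well below the parental ones in each line (−1.58 ± 0.26, edgeR adjusted p = 0.00252 in HPV−, and −1.10 ± 0.26, adjusted p = 0.0183 in HPV+ cells). The HPV+ resistant values were close together, while the HPV− parental values lay far apart.

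UQCRB, a small subunit near the quinone site, had 188.4 and 167.7 CPM in HPV− resistant libraries, against 597.7 and 335.7 CPM in HPV− parental libraries (−1.39 ± 0.23, edgeR adjusted p = 0.00261). UQCR10, a subunit of the membrane part, had 26.6 and 27.4 CPM in HPV+ resistant libraries, against 54.8 and 46.8 CPM in HPV+ parental libraries (−0.91 ± 0.14, adjusted p = 0.00238). These 2 were called in different lines, since UQCRB measured −0.42 in HPV+ cells (adjusted p = 0.239) and UQCR10 measured −0.17 in HPV− cells (adjusted p = 0.402). The hinge protein UQCRH fell by 0.63 in HPV− cells (adjusted p = 0.0105) and measured −0.32 in HPV+ cells (adjusted p = 0.158), and its near copy UQCRHL gave at most 0.0205% of their joint TPM. The Rieske iron-sulfur protein UQCRFS1 fell by 0.48 in HPV− cells (adjusted p = 0.0303) and measured −0.29 in HPV+ cells (adjusted p = 0.181). The core protein UQCRC2 was the least changed in HPV+ cells, at 0.15 (adjusted p = 0.453).

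Complex IV, cytochrome c oxidase, had 8 of 13 tested members lower in the HPV− clone and 7 in the HPV+ clone, 6 of them shared. Its median in HPV+ cells, −0.85, lay below those of the other complexes. COX8A, a small transmembrane subunit, had 121.9 and 121.3 CPM in HPV+ resistant libraries, against 290.8 and 282.8 CPM in HPV+ parental libraries. It had 117.9 and 148.2 CPM in HPV− resistant libraries, against 195.2 and 207.5 CPM in HPV− parental libraries. The HPV+ gap was wide next to the replicate spread (−1.24 ± 0.15, edgeR adjusted p = 0.000632), and the HPV− gap was smaller (−0.60 ± 0.15, adjusted p = 0.0134).

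COX6C had 157.8 and 146.9 CPM in HPV− resistant libraries, against 403.2 and 294.5 CPM in HPV− parental libraries. It had 167.0 and 142.8 CPM in HPV+ resistant libraries, against 275.9 and 281.3 CPM in HPV+ parental libraries. Neither line showed overlap (−1.19 ± 0.17, edgeR adjusted p = 0.00102, and −0.85 ± 0.17, adjusted p = 0.0084). NDUFA4 had 143.4 and 133.6 CPM in HPV+ resistant libraries, against 354.7 and 305.6 CPM in HPV+ parental libraries (−1.25 ± 0.23, adjusted p = 0.00629), and fell by 0.77 in HPV− cells (adjusted p = 0.0337). COX6B1, which faces the intermembrane space, fell by 0.73 ± 0.16 in HPV− (adjusted p = 0.00775) and by 0.78 ± 0.16 in HPV+ cells (adjusted p = 0.00866). COX5A was the least changed in HPV+ cells, at −0.12 (adjusted p = 0.608).

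Several complex IV subunits have paired or tissue forms. The common forms carried nearly all of the TPM: COX6B1 gave at least 99.56% of the TPM of COX6B1 and its testis form COX6B2, and COX6A1 at least 99.78% of that of COX6A1 and the muscle form COX6A2. COX6A1 fell by 0.79 in HPV− (edgeR adjusted p = 0.019) and 0.98 in HPV+ cells (adjusted p = 0.0107). NDUFA4L2, the form induced by hypoxia, gave 11.2 and 3.35% of the joint TPM with NDUFA4 in HPV+ resistant libraries, against 1.87 and 2.09% in HPV+ parental libraries. In HPV+ resistant replicate 1 a form of 214 nt with 4 estimated counts made up 75.5% of the NDUFA4L2 TPM, so that share rests on very few reads. NDUFA4L2 itself stayed at 2.5 and 2.5 CPM in HPV+ resistant, against 3.5 and 3.4 CPM in HPV+ parental libraries (−0.47, adjusted p = 0.496). COX7A2L, which takes part in joining complexes III and IV into supercomplexes, gave 21.4 and 22.7% of the joint TPM with COX7A2 in HPV− resistant libraries, against 8.04 and 17.9% in HPV− parental libraries. COX7A2 fell by 1.06 there (adjusted p = 0.0403), while COX7A2L measured −0.01 (adjusted p = 0.982). COX7A2L fell by 0.60 in HPV+ cells (adjusted p = 0.0198), where COX7A2 measured −1.03 (adjusted p = 0.0572). COX7B fell by 1.10 in HPV− cells (adjusted p = 0.0146) and measured −0.74 in HPV+ cells (adjusted p = 0.0815).

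In ATP synthase, 12 of 17 tested members were lower in the HPV− clone and 7 in the HPV+ clone, with 5 in common (ATP5F1D, ATP5F1E, ATP5MC2, ATP5MC3 and ATP5MG) and medians of −0.76 and −0.60. In the F1 part, which holds the catalytic head and the central stalk, 3 of 4 tested genes were lower in each line. In the membrane part and the peripheral stalk 9 of 12 were lower in the HPV− line and 4 in the HPV+ line. ATP5F1A, the gene of the alpha subunit of F1, had 394.7 and 403.0 CPM in HPV− resistant libraries, against 427.1 and 484.9 CPM in HPV− parental libraries. Its groups lay close together without overlap (−0.19, edgeR adjusted p = 0.345), and in HPV+ cells it fell by 0.47 (adjusted p = 0.0466). ATP5F1C, the gene of the rotating central stalk, had 183.4 and 174.2 CPM in HPV− resistant libraries, against 365.3 and 240.9 CPM in HPV− parental libraries. It fell by 0.76 ± 0.18 in HPV− cells (adjusted p = 0.0128) and measured −0.45 in HPV+ cells (adjusted p = 0.112).

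ATP5MC1, ATP5MC2 and ATP5MC3 encode the same mature c subunit, which forms the rotor ring. ATP5MC3 had 168.2 and 174.4 CPM in HPV− resistant libraries, against 385.6 and 293.2 CPM in HPV− parental libraries. It had 251.9 and 244.5 CPM in HPV+ resistant libraries, against 504.9 and 466.0 CPM in HPV+ parental libraries. It fell in both lines (−0.99 ± 0.16, edgeR adjusted p = 0.00184, and −0.97 ± 0.16, adjusted p = 0.00302). ATP5MC1 had 62.6 and 69.8 CPM in HPV− resistant, against 192.0 and 118.3 CPM in HPV− parental libraries (−1.23 ± 0.23, adjusted p = 0.00449), and measured −0.68 in HPV+ cells (adjusted p = 0.0673). ATP5MC2 fell by 0.65 in HPV− (adjusted p = 0.0124) and 0.70 in HPV+ cells (adjusted p = 0.0128). As a share of the TPM of the 3 genes, ATP5MC2 gave 41.5 and 40.6% in HPV+ resistant libraries, against 33.1 and 40.4% in HPV+ parental libraries, and 33.0 and 35.4% in HPV− resistant libraries, against 22.1 and 32.1% in HPV− parental libraries.

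ATP5MG, subunit g of the membrane part, had 86.4 and 86.9 CPM in HPV− resistant libraries, against 237.9 and 162.3 CPM in HPV− parental libraries. The groups did not overlap (−1.21 ± 0.18, edgeR adjusted p = 0.00134), and in HPV+ cells it fell by 0.83 ± 0.18 (adjusted p = 0.0123). ATP5ME, subunit e, had 35.7 and 37.1 CPM in HPV− resistant libraries, against 141.9 and 46.4 CPM in HPV− parental libraries. Its log2 fold change of −1.37 did not pass (adjusted p = 0.135), and the parental libraries lay far apart. ATP5MJ was the least changed in HPV+ cells, at 0.10 (adjusted p = 0.871). ATP5MF-PTCD1 is a read-through gene whose reads overlap those of ATP5MF.

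CYCS, cytochrome c itself, lies on chromosome 7 (GRCh38, chr7:25118656-25125260, minus strand). It had 168.1 and 143.7 CPM in HPV− resistant libraries, against 377.5 and 381.0 CPM in HPV− parental libraries. It had 236.1 and 203.2 CPM in HPV+ resistant libraries, against 271.0 and 256.1 CPM in HPV+ parental libraries. Resistant libraries were lower in both lines, by a wide margin in HPV− cells (−1.28 ± 0.15, edgeR adjusted p = 0.000349) and a narrow one in HPV+ cells (−0.26 ± 0.14, adjusted p = 0.231).

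The size of the change was compared between the lines by the interaction, given as the HPV+ effect minus the HPV− effect. It passed the adjusted p for 6 members, 4 with a less negative effect in HPV+ cells (background 8.16%) and 2 with a more negative one (background 8.57%), which are shares below the background. The 4 were CYCS (1.02 ± 0.20, edgeR adjusted p = 0.00761), NDUFB6 (0.91 ± 0.24, adjusted p = 0.0289), NDUFB9 (0.88 ± 0.22, adjusted p = 0.0213) and NDUFA12 (0.72 ± 0.20, adjusted p = 0.0363). The 2 were NDUFB10 (−0.98 ± 0.24, adjusted p = 0.0193) and UQCR10 (−0.74 ± 0.20, adjusted p = 0.0287). NDUFB10, of the membrane arm, had 74.4 and 80.8 CPM in HPV+ resistant libraries, against 138.5 and 131.6 CPM in HPV+ parental libraries. In HPV− cells it had 65.9 and 92.8 CPM in resistant libraries, around the 67.7 and 72.2 CPM in parental libraries, so it differed in the HPV+ line and overlapped in the HPV− line. COX8A (−0.64, adjusted p = 0.0577) and NDUFC2-KCTD14 (2.01, adjusted p = 0.06) were next and did not pass. Of the 6 calls, none was left without HPV+ parental replicate 2, 1 was left without each other HPV+ library, 2 without either HPV− resistant library, and 6 and 5 without HPV− parental replicates 1 and 2.

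Lower calls were shared for 23 members, against 2.81% of all genes lower in both lines at the adjusted p. These were 52.3% of the HPV− calls and 62.2% of the HPV+ calls, and the 2 comparisons have no libraries in common. Of the tested members, 22 were called in neither line, among them NDUFV1, SDHA, UQCRC2 and COX5A. Across the 79 tested members with counts in both lines, log2 fold changes in HPV− and HPV+ cells gave a Pearson r of 0.42 (Spearman 0.41), and across 14654 other such genes 0.06 (0.15), as a description over genes that are not independent.

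**Figure D3:**
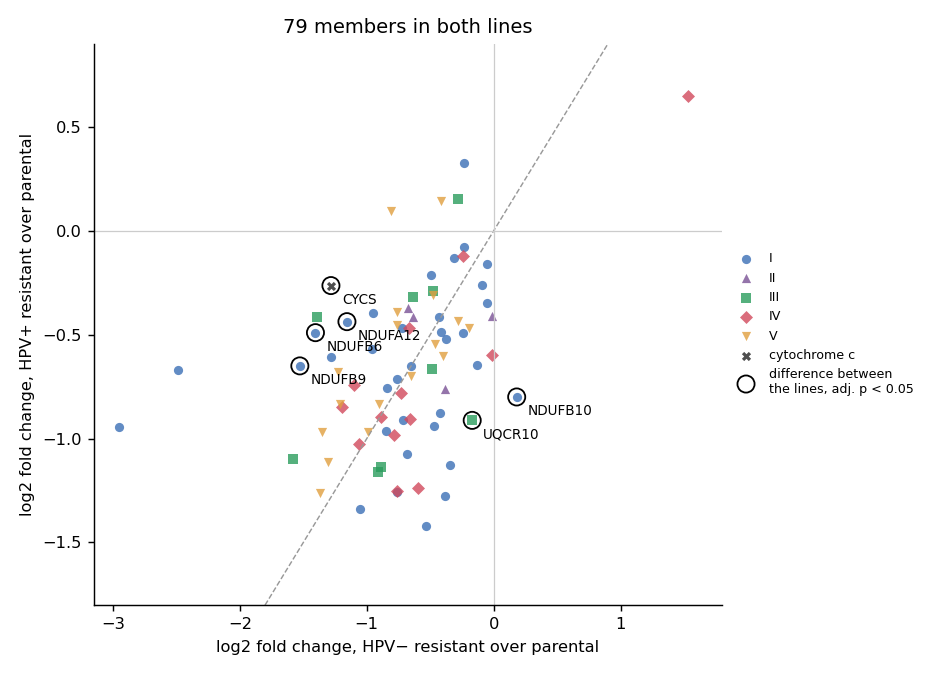
Log2 fold change in HPV− cells (x axis) against HPV+ cells (y axis) for 79 members, without NDUFA6, which had no counts in HPV− cells, by complex, with a dashed line of equal change and rings around the 6 members past an adjusted p of 0.05 for the difference between the lines. Most points lie below 0 on both axes, with CYCS, NDUFB9, NDUFB6 and NDUFA12 above and NDUFB10 and UQCR10 below the dashed line.

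**Figure D4:**
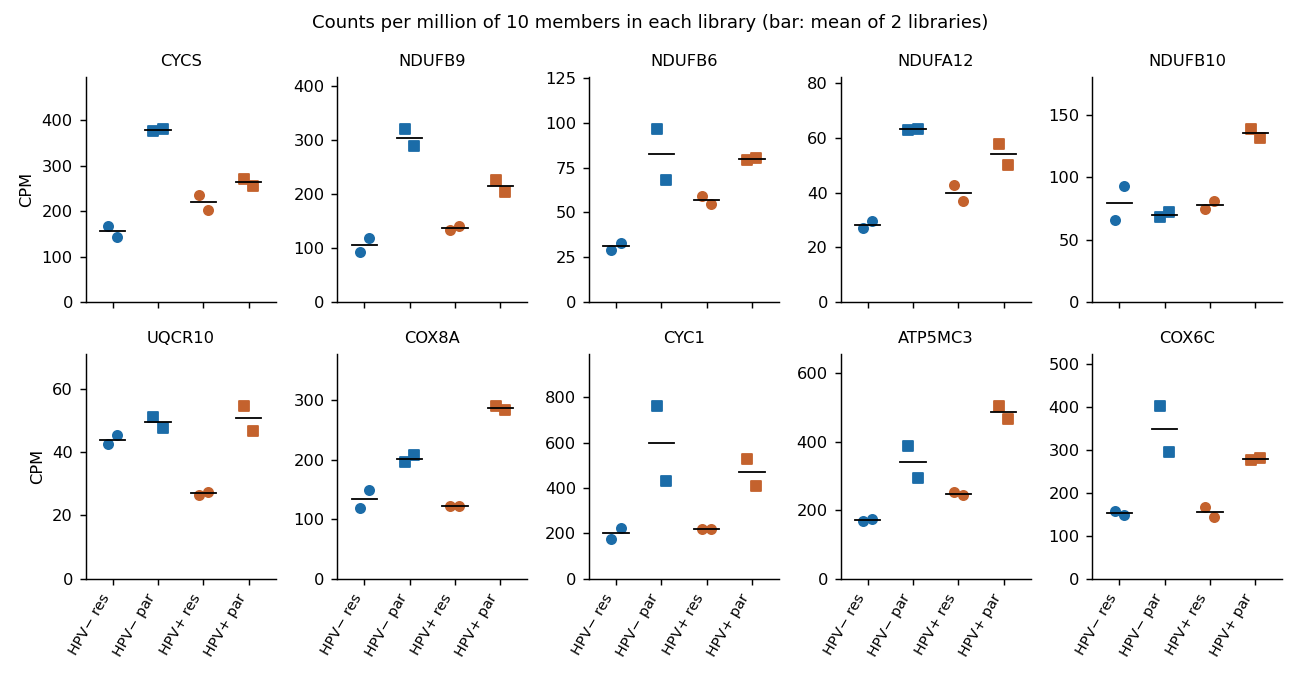
CPM of 10 members in each library, with circles for resistant and squares for parental libraries, blue for HPV− and orange for HPV+, and bars at the mean of 2 libraries. CYCS has 168.1 and 143.7 CPM in HPV− resistant cells, against 377.5 and 381.0 CPM in HPV− parental cells, while its HPV+ groups lie closer together, and NDUFB10 separates by resistance in the HPV+ line.

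The parental lines differed for 41 members, 17 higher in HPV+ parental cells (background 28%) and 24 lower (background 30%). The share higher was below the background and the share lower was at it. NDUFA5, a Q module subunit, had 87.5 and 87.5 CPM in HPV+ parental libraries, against 261.5 and 258.8 CPM in HPV− parental libraries (−1.57 ± 0.14, edgeR adjusted p = 7.11e-06). NDUFV1 had 180.7 and 157.6 CPM in HPV+ parental libraries, against 540.3 and 395.4 CPM in HPV− parental libraries (−1.47 ± 0.18, adjusted p = 4.89e-05). NDUFS8 (−1.53), NDUFA9 (−1.23) and NDUFA10 (−1.23) were lower in HPV+ parental cells too, and none of these libraries overlapped. In the other direction COX5B had 539.2 and 523.2 CPM in HPV+ parental libraries, against 303.1 and 185.5 CPM in HPV− parental libraries (1.12 ± 0.20, adjusted p = 0.000804). NDUFA6 had 35.6 and 52.3 CPM in HPV+ parental cells and 0 counts in HPV− parental cells. With 3 counts over the group taken as the floor, it was at least 599-fold higher in HPV+ parental cells. Only part of its annotated transcripts were quantified, so this fold is uncertain, and its cause was not tested.

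Replicate 1 of the HPV− parental cells exceeded replicate 2 for 59 of the 80 members, with a median log2 ratio of 0.26, against −0.03 for other genes. In the other groups this median was −0.10 in HPV− resistant, 0.05 in HPV+ resistant and 0.08 in HPV+ parental cells. The members are short, with a median transcript length of 725 nt against 2360 nt for the other genes tested, and 43 of the 80 are under 800 nt. In the HPV− parental pair the log2 ratio of the replicates correlated with log2 length over 15221 genes (Pearson r = −0.41, across genes of the same libraries). Genes under 800 nt that are not members had medians of −0.24 (HPV−) and −0.25 (HPV+), with 20.2% and 15.2% of these 853 genes lower at the adjusted p. The part of transcript length in the lower subunit levels was examined by taking off a smooth trend with length, GC content and level, fitted on the other genes.

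With the trend taken off, medians in HPV− cells were 0.02 for complex I, −0.12 for complex II, −0.22 for complex III, 0.00 for complex IV and −0.30 for complex V. In HPV+ cells they were −0.33, −0.34, −0.43, −0.62 and −0.37, all still below 0. NDUFB9 kept −0.89, NDUFB6 −1.08, CYC1 −1.20 and CYCS −1.02 in HPV− cells, and COX8A kept −0.72 and NDUFA4 −1.34 in HPV+ cells. For the members the trend itself had a median of −0.50 in HPV− and −0.22 in HPV+ cells. With it taken off, 45 of the 80 members stayed below 0 in HPV− and 70 in HPV+ cells. The trend explained 4.67% of the deviance of the log2 fold changes of the other genes in HPV− and 3.46% in HPV+ cells.

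Position was described with the 10 nearest other tested genes on each side. For 4 members on chromosome 8 these neighbours were also lower in HPV− resistant cells, with medians of −0.74 around COX6C, −0.57 around CYC1, −0.40 around UQCRB and −0.40 around NDUFB9. Around NDUFB6 on chromosome 9 the median was −0.86. Set against their neighbours, COX6C had −0.46, NDUFB6 −0.54, UQCRB −0.99, CYC1 −1.01 and NDUFB9 −1.13 left. In HPV+ cells the neighbours of NDUFB10 on chromosome 16 had a median of −0.73 and those of NDUFV1 on chromosome 11 of −0.66, which left −0.07 for NDUFB10 and 0.14 for NDUFV1. Around CYCS the median was 0.19 in HPV− and −0.40 in HPV+ cells. Over all members the median after subtraction was −0.64 in HPV− and −0.61 in HPV+ cells. Copy number was not tested.

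**Figure D5:**
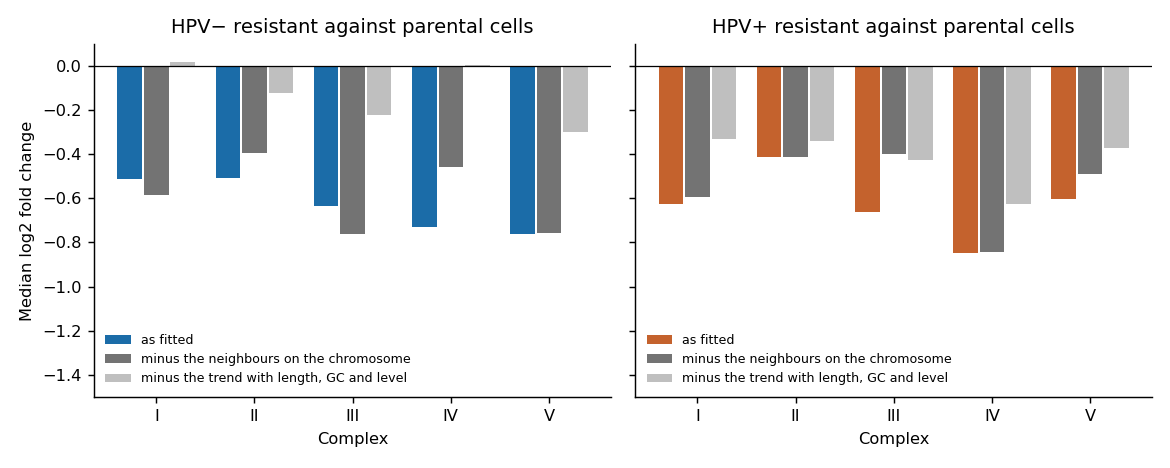
Median log2 fold change of complexes I to V as fitted, minus the median of the chromosomal neighbours, and minus the trend with transcript length, GC content and level, HPV− on the left and HPV+ on the right. Taking off the trend brings complexes I and IV to 0.02 and 0.00 in HPV− cells, whereas all 5 stay between −0.62 and −0.33 in HPV+ cells.

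At the level of transcripts, 188 forms of members had a mean over 5 TPM, and 2 of them shifted their share of the gene's TPM by more than 5 percentage points in the same direction in both lines, without overlap. That is 1.06% of these forms, against 4.65% of 14843 forms of the other tested genes. In single lines 16 forms shifted in HPV− (8.51%, against 15.7% for the other genes) and 22 in HPV+ cells (11.7%, against 21.4%), so each share was below that of the other genes. The main form of ATP5F1C (ENST00000356708) gave 95.4 and 92.3% in HPV− resistant libraries, against 75.8 and 75.3% in HPV− parental libraries. It gave 94.8 and 92.5% in HPV+ resistant libraries, against 77.9 and 84.2% in HPV+ parental libraries. Parental libraries held more of shorter forms, among them ENST00000460820 of 622 nt, which had no counts in any resistant library. Of the counts of the main form and of ENST00000335698, which lacks its second-to-last exon, the form without the exon gave 0 of 3568 and 0 of 3349 estimated counts in HPV− resistant libraries, which allows shares of up to 0.0841% and 0.0896%. It gave 0.521% (exact Clopper-Pearson 95% interval 0.363 to 0.738%) and 0.327% (0.19 to 0.539%) in HPV− parental libraries. In HPV+ cells it gave 2.01 and 0.739% in resistant libraries, against 3.25 and 2.17% in parental libraries, and these intervals cover counting error only. The other shifted form, ENST00000650309 of COX7B, gave 41.3 and 38.3% in HPV− resistant libraries, against 24.8 and 32.3% in HPV− parental libraries, and 44.3 and 42.7% in HPV+ resistant libraries, against 35.1 and 37.5% in HPV+ parental libraries.

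The nuclear factors NRF1, GABP (of the ETS family), YY1 and ERRα are known to bind many promoters of respiratory genes. RefSeq promoter windows (GRCh38.p14, 250 bases before to 50 after the start) were found for 68 members. The NRF1 letters GCGCATGC stood in 20.6% of these windows against 3.27% of 27305 windows of all genes, the ETS letters CCGGAAGT in 13.2% against 4.44%, the YY1 letters AAGATGGC in 16.2% against 3.03% and the ERR letters CAAGGTCA in 5.88% against 1.33%, both strands searched. CCAAT stood in 35.3% against 35.7% and GGGCGG in 58.8% against 44.6%. Among the 11359 tested genes with a window the shares were 5.21% for NRF1, 8.13% for ETS, 4.97% for YY1, 0.801% for ERR, 36.5% for CCAAT and 68.5% for GGGCGG. The last was thus more frequent in members than in all windows, but at 61.5% of the 65 tested members less frequent than in tested genes. A match describes letters only. Among 65 tested members with a window, the 14 with the NRF1 letters had medians of −0.67 in HPV− and −0.43 in HPV+ cells, against −0.49 and −0.61 for the 51 without. The 9 with the ETS letters had −0.67 and −0.97, against −0.51 and −0.54 for the 56 without. The 11 with the YY1 letters had −0.48 and −0.39, against −0.65 and −0.65 for the 54 without, and 4 and 2 of them were lower at the adjusted p. With the ERR letters (4 members) the medians were −0.64 in HPV− and −0.60 in HPV+ cells, against −0.64 and −0.60 for the 61 without. With CCAAT (22 members) they were −0.50 and −0.60, against −0.65 and −0.61 for the 43 without. With GGGCGG (40 members) they were −0.57 and −0.63, against −0.73 and −0.49 for the 25 without. None of these differences was tested.

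Windows are shown for CYCS, whose change differed between the lines, COX8A, which had the smallest p of complex IV in HPV+ cells, NDUFS7, a core subunit lower in the HPV+ line, and SDHD, which holds 3 of the motifs. Capitals mark the NRF1, ETS, YY1 and ERR letters on either strand, and in SDHD a pair of overlapping NRF1 matches on opposite strands form a single run. Each is written 5′ to 3′ on the strand of the gene.
CYCS (chr7:25125211-25125510, minus strand): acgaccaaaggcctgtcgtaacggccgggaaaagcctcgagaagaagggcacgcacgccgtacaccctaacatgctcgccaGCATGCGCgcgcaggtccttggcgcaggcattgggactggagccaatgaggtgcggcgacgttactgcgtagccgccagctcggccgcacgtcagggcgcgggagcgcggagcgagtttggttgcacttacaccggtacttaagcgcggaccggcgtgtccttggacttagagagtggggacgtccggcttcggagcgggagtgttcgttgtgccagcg
COX8A (chr11:63974370-63974669, plus strand): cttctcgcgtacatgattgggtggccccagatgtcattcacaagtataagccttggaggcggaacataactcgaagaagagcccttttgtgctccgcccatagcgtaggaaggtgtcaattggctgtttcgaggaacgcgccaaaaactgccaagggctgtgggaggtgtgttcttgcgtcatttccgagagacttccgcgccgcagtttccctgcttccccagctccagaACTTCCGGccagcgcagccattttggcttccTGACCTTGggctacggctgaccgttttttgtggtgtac
NDUFS7 (chr19:1383657-1383956, plus strand): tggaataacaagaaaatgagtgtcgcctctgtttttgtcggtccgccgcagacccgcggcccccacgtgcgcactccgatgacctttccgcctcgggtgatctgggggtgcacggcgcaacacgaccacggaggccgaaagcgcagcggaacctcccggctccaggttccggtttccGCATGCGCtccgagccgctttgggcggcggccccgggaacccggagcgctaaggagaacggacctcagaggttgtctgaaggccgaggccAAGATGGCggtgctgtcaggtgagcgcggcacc
SDHD (chr11:112086623-112086922, plus strand): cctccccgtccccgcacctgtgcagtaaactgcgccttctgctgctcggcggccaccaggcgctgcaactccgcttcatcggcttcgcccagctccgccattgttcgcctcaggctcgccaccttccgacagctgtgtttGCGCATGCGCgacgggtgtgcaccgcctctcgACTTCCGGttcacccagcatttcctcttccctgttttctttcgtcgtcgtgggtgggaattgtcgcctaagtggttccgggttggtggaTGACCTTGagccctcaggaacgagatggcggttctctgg

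CYCS carries the NRF1 letters, NDUFS7 the NRF1 and YY1 letters and COX8A the ETS and ERR letters. The HPV+ log2 fold changes of CYCS, NDUFS7 and COX8A were −0.26, −1.27 and −1.24. Of 11 tested genes of such nuclear regulators, 3 were lower at the adjusted p in HPV− cells (background 14.1%). In HPV+ cells 1 was lower (background 10.5%) and 1 higher (background 7.65%). Their medians were −0.09 in HPV− and 0.29 in HPV+ cells. Both HPV+ resistant libraries lay above both parental libraries for 8 of the 11, against 5103 of 15221 genes. ESRRA, the gene of ERRα, was the 1 lower in HPV+ cells. It had 41.1 and 55.8 CPM in HPV+ resistant libraries, against 130.6 and 105.0 CPM in HPV+ parental libraries (−1.28 ± 0.22, edgeR adjusted p = 0.00473), and fell by 0.73 in HPV− cells (adjusted p = 0.0367). NRF1 measured −0.41 (adjusted p = 0.0845) in HPV− and −0.11 (adjusted p = 0.687) in HPV+ cells. YY1 was higher in HPV+ resistant cells by 0.66 (adjusted p = 0.011). The coactivator gene PPRC1 fell by 0.74 in HPV− cells (adjusted p = 0.00479) and measured 0.29 in HPV+ cells (adjusted p = 0.191). No link between these genes and the members was tested.

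Genes that assemble the complexes were read from a separate list. Of 57 tested assembly factors, 26 (45.6%) were lower at the adjusted p in HPV− resistant cells, against 14.1% of all genes tested. In HPV+ resistant cells 12 (21.1%) were lower, against 10.5% of all genes. There 3 (5.26%) were higher, a share below the background of 7.65%. Medians were −0.53 in HPV− and −0.22 in HPV+ cells. COX17, a copper chaperone for complex IV, had 26.8 and 32.8 CPM in HPV− resistant libraries, against 99.2 and 64.0 CPM in HPV− parental libraries. It had 21.8 and 19.1 CPM in HPV+ resistant libraries, against 67.7 and 65.7 CPM in HPV+ parental libraries. COX17 was far lower in both clones (−1.45 ± 0.21, edgeR adjusted p = 0.001, and −1.70 ± 0.21, adjusted p = 0.000736). UQCC3, an assembly factor of complex III, fell by 1.18 (adjusted p = 0.00849) and 1.35 (adjusted p = 0.00744), and NDUFAF8 of complex I by 1.20 (adjusted p = 0.019) and 1.09 (adjusted p = 0.0376). NDUFAF6, a complex I factor, fell by 1.45 in HPV− cells (adjusted p = 0.000317) and measured −0.08 in HPV+ cells, an interaction of 1.38 ± 0.22 (adjusted p = 0.00269). HIGD2A, a complex IV factor, fell by 1.10 in HPV+ cells (adjusted p = 0.00154) and measured 0.03 in HPV− cells, an interaction of −1.13 ± 0.22 (adjusted p = 0.00657). FMC1, an ATP synthase factor, was past both the adjusted p and a log2 fold change of −1 in each line, at −1.02 in HPV− and −1.81 in HPV+ cells. The others past both thresholds were FOXRED1 (−1.30), COA6 (−1.10), COA4 (−1.03), NDUFAF2 (−1.02) and NDUFAF4 (−1.01) in HPV− cells, and SCO2 (−1.33) and PNKD (−1.18) in HPV+ cells.

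Of 19 genes of the citric acid cycle, 7 (36.8%) were lower at the adjusted p in the HPV− clone (background 14.1%). In the HPV+ clone 8 (42.1%) were lower (background 10.5%). CS, citrate synthase, had 131.3 and 149.9 CPM in HPV− resistant libraries, against 311.1 and 441.8 CPM in HPV− parental libraries (−1.42 ± 0.18, edgeR adjusted p = 0.000552). OGDH, of the 2-oxoglutarate dehydrogenase complex, had 79.5 and 81.2 CPM in HPV+ resistant libraries, against 192.9 and 186.1 CPM in HPV+ parental libraries (−1.24 ± 0.13, adjusted p = 0.000352). CS measured −0.44 in HPV+ cells (adjusted p = 0.108) and OGDH 0.12 in HPV− cells (adjusted p = 0.519), with interactions of 0.98 (adjusted p = 0.0235) for CS and −1.36 (adjusted p = 0.00108) for OGDH. Of 27 import genes, 17 (63.0%) were lower in the HPV− clone (background 14.1%) and 7 (25.9%) in the HPV+ clone (background 10.5%). Among them was TIMM10, a chaperone of the intermembrane space, at −1.53 and −1.24 (edgeR adjusted p = 0.00123 and 0.00532). The other import genes past both thresholds were TIMM8B (−1.87), TOMM5 (−1.55), TOMM40 (−1.30), TOMM70 (−1.25), HSPE1 (−1.24) and GRPEL1 (−1.04) in HPV− cells, and TIMM17B (−1.44) and TOMM7 (−1.40) in HPV+ cells. Of 19 other genes of mitochondrial structure and mass, 8 (42.1%) were lower in HPV− cells (background 14.1%) and 1 (5.26%) was higher (background 12.8%). In HPV+ cells 6 (31.6%) were lower (background 10.5%), with MICOS13 (−1.39) past both thresholds. COX4I1, a complex IV subunit whose symbol the rule does not take, measured −0.33 in HPV− (adjusted p = 0.165) and fell by 0.84 in HPV+ cells (adjusted p = 0.00783).

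The subunits encoded by mitochondrial DNA differed in the other direction in HPV− cells, where 10 of 13 were higher at the adjusted p (background 12.8%). In HPV+ cells 0 of the 13 passed it in either direction. Their median log2 fold change was 1.03 in HPV− and 0.19 in HPV+ cells. MT-CO1, the catalytic subunit of complex IV, had 12177 and 8784 CPM in HPV− resistant libraries, against 3922 and 5250 CPM in HPV− parental libraries (1.19 ± 0.24, edgeR adjusted p = 0.00526), and measured −0.07 in HPV+ cells (adjusted p = 0.884). MT-ND1 (1.34), MT-ND4L (1.21), MT-ND5 (1.19), MT-ND4 (1.18), MT-ND3 (1.11) and MT-CO3 (1.03) were also past both thresholds in HPV− cells. Counts of mitochondrial genes took 4.996 and 3.24% of HPV− resistant libraries, against 1.71 and 1.99% of HPV− parental libraries. They took 3.23 and 2.45% of HPV+ resistant libraries, against 2.83 and 2.13% of HPV+ parental libraries, which overlapped. The part of these counts in the levels of the nuclear genes was not tested.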

How the data were processed

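Polyadenylated RNA from 8 libraries of established cell lines was sequenced, and the authors ran Salmon on GRCh38 transcripts. Its version is not given in the sources used here, nor is the annotation. The deposited files give estimated counts and TPM per transcript. Of 187432 transcripts, 172550 matched GENCODE release 44 identifiers without version, and unmatched ones held 4.33 to 5.13% of the counts. Estimated counts were summed per gene and rounded. edgeR 4.0.16 (R 4.3.3) quasi-likelihood tests with TMM factors, filterByExpr and 1 coefficient per group were fitted on all 8 libraries, with Benjamini-Hochberg adjustment over 15221 genes. Standard errors were derived from the log2 fold change and F statistic. With 4 residual degrees of freedom, the common dispersion was 0.0326. CPM use TMM-scaled library sizes.

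The members and lists were chosen with earlier results of these data known. Members are named by rule: the 4 with the smallest p per complex, the least changed, paralogous and core members, the 8 of smallest p in the interaction and the 6 of smallest p between parental lines, and untested members. Genes of the other mitochondrial lists are named where past both thresholds, and cell type markers are given by their sums. COX5B, ATP5ME, COX4I1, NRF1, YY1 and PPRC1 were named after their values were seen. Values of 1 core member of complex I are not reported here.

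A trend was fitted with mgcv 1.9.3, and DESeq2 1.42.0, other normalizations, filters, a length offset, glmTreat, a replicate block and leaving out each library were the alternatives. The fits were tested on simulated data. Intervals and floors of 3 counts cover counting error only.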

Additional observations from a re-analysis of the deposited data

Results flagged for a closer look

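The change with resistance differed between the lines for 6 of 80 tested members by edgeR's interaction test over all genes. At this adjusted p the HPV+ effect minus the HPV− effect was above 0 for 5% of members, against 8.16% of all genes. It was below 0 for 2.5%, against 8.57%, so both shares were below the background. The difference, HPV+ minus HPV−, was 1.02 for CYCS (adjusted p = 0.00761), with log2 fold changes of −0.26 in HPV+ and −1.28 in HPV− cells. It was 0.91 for NDUFB6 (adjusted p = 0.0289), with −0.49 in HPV+ and −1.40 in HPV− cells, and 0.88 for NDUFB9 (adjusted p = 0.0213), with −0.65 in HPV+ and −1.53 in HPV− cells. It was 0.72 for NDUFA12 (adjusted p = 0.0363), with −0.44 in HPV+ and −1.16 in HPV− cells. In the other direction it was −0.98 for NDUFB10 (adjusted p = 0.0193), with −0.80 in HPV+ and 0.18 in HPV− cells, and −0.74 for UQCR10 (adjusted p = 0.0287), with −0.91 in HPV+ and −0.17 in HPV− cells. Neighbouring genes were also lower around NDUFB6 and NDUFB9 in HPV− and around NDUFB10 in HPV+ cells. Around CYCS they were higher in HPV− and lower in HPV+ cells. The interaction was not set against neighbours, and copy number was not tested.

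Leaving out HPV+ parental replicate 2 ended all 6 calls, with an adjusted p of 0.0512 for CYCS. With the transcript length offset CYCS (adjusted p = 0.0274), NDUFB9 (0.0282) and NDUFB10 (0.0365) still passed, while NDUFB6 (0.102), NDUFA12 (0.114) and UQCR10 (0.143) did not.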

How the results depend on the processing

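With 2 libraries a group, calls depended on single libraries while directions mostly held. Of the alternatives, 277 were labelled the same within a tolerance, 28 lost and 14 gained calls beyond it, 31 moved a median and 2 reversed one. The tolerance was wide for counts, since 25 HPV+ members past the adjusted p with the length offset counted as the same as 37. The genes could differ too: with upper-quartile factors 1 member was called for the difference between the lines, but a different one. In HPV− cells a complex IV median of −0.38 counted as the same as −0.73, but −0.54 as moved from −0.51 in complex II. Without 1 library at a time, differentially expressed members ranged from 7 to 34 in HPV− and 2 to 14 in HPV+ cells, 0 to 5 for the difference between the lines and 13 to 19 between parental lines. Members past the adjusted p ranged from 17 to 60, 8 to 56, 0 to 20 and 27 to 47. Medians of complexes I to V ranged from −0.85 to −0.38, −0.58 to −0.41, −0.84 to −0.37, −1.02 to −0.38 and −1.10 to −0.50 in HPV− cells, and from −0.69 to −0.55, −0.46 to −0.41, −0.68 to −0.66, −0.92 to −0.77 and −0.76 to −0.55 in HPV+ cells. Testing against a minimum log2 fold change of 1 (glmTreat) left 2 members by either count in HPV− cells, 0 in HPV+ cells, 0 for the difference between the lines and 5 between parental lines; in HPV+ cells 11 and 37 passed the usual edgeR test, 57 were lower at an unadjusted p below 0.05, and DESeq2 on 8 libraries called 46. On the 4 libraries of the HPV+ line edgeR called 61 and DESeq2 63 past the adjusted p. For the difference between the lines the length offset left 0 differentially expressed members and 3 past the adjusted p, no filter gave 2, and DESeq2 on 8 libraries gave 2 and 10. With the trend taken off, HPV− medians of complexes I and IV reversed to 0.019 and 0.0044, complexes II and III moved to −0.12 and −0.22, and HPV+ medians of complexes I to V moved to −0.33, −0.34, −0.43, −0.62 and −0.37. The HPV− median of complex II was −0.43 with upper-quartile factors, −0.46 with the length offset, −0.54 and −0.56 with edgeR and DESeq2 on 4 libraries, and −0.39 minus neighbours. In HPV+ cells the length offset gave −0.34 for complex II, −0.46 for complex III and −0.50 for complex V. There complex III had −0.80 without a filter, −0.76 and −0.80 with DESeq2 on 8 and 4 libraries and −0.40 minus neighbours, and complex V had −0.56 with upper-quartile factors, −0.55 with DESeq2 on 8 libraries and −0.49 minus neighbours. The cause was not tested. Replicate numbers did not pair the samples (correlations of deviations −0.074 in HPV−, −0.015 in HPV+ and 0.142 between parental cells), and with the replicate block 15 and 41 members were called in HPV−, 13 and 40 in HPV+, 1 and 5 for the difference between the lines and 14 and 41 between parental lines.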
